A study of Mus musculus with 6 samples.

Results

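J-domain proteins, also called the Hsp40 family, are the co-chaperones that hand unfolded clients to Hsp70 and start its ATP hydrolysis cycle. Genes of the family were taken as all protein-coding mouse genes named Dnaja, Dnajb or Dnajc with a number, pseudogenes left out. This gave 45 members of the 37991 genes listed in the count files: 4 Dnaja, 13 Dnajb and 28 Dnajc genes. A filter on low counts kept 36 of them for testing, and the other 9 are described by their counts. The libraries came from natural killer (NK) cells of mouse spleen carrying CD27 and CD11b, in 2 groups on the C57BL6 background. The first group was 3 wildtype libraries and the other 3 Rroid-deficient libraries, where Rroid is a long noncoding RNA next to Id2. The labels do not say how the deficiency was made, the age of the mice, or whether each library is 1 mouse or a pool, and a p-value here reflects only how these libraries varied, which may be technical.

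A J domain docks on Hsp70 and stimulates ATP hydrolysis, which closes Hsp70 on its client. Class A members (Dnaja) carry a zinc-binding region and a glycine and phenylalanine rich stretch, class B members (Dnajb) keep the stretch without the zinc-binding region, and class C members (Dnajc) share only the J domain. A few cytosolic members are heat shock genes under the transcription factor Hsf1, a few in the endoplasmic reticulum (ER) are induced by unfolded protein there, and most are expressed constitutively. Dnaja1, Dnaja4, Dnajb1 and Dnajb4 were treated as the heat-inducible members, and Dnajb9, Dnajb11, Dnajc3 and Dnajc10 as the ER-stress-inducible ones.

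Promoter letters are shown first for the heat-inducible members, because they include the members with the smallest p-values in the family. RefSeq promoters on GRCm38.p6, from 250 bases before to 50 after each start, were found for 37 of the 45 members. Of these windows, the stretch before the start that lies outside annotated exons is printed for Dnajb1 and for a Dnaja1 start. The letters searched, on both strands, were those of the Hsf1 site, the heat shock element. They were GAANNTTC (2 units head to head), TTCNNGAA (2 units tail to tail) and GAANNTTC followed directly by NNGAA (3 units), where the last contains both of the shorter forms. Capitals mark a match in all sequences below, and neither of these stretches holds one.
Dnajb1, chr8:83607972-83608174, plus strand: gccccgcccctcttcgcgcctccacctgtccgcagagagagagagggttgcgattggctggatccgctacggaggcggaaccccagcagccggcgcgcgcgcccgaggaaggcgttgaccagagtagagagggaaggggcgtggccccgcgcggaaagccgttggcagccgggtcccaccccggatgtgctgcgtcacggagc
Dnaja1, chr4:40722672-40722916, plus strand: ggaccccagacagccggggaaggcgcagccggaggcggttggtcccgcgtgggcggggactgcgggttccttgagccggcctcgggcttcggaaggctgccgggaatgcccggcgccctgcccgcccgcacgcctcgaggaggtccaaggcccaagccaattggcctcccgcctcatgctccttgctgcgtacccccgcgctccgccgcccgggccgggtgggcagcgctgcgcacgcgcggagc

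Matches did stand in other windows, including that of another Dnaja1 start farther upstream. The 30 bases around a match are printed for the heat-inducible members, for Dnajb6, the member with a match of 3 units, and for the Hsp70 gene Hspa1a.
Dnaja1, chr4:40722333-40722362, plus strand: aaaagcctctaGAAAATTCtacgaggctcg
Dnaja4, chr9:54699458-54699487, plus strand: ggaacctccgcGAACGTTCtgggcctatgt
Dnaja4, chr9:54699496-54699525, plus strand: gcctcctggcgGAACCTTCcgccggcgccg
Dnajb4, chr3:152193841-152193870, minus strand: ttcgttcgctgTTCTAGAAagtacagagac
Dnajb6, chr5:29735844-29735873, plus strand: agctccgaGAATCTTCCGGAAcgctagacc
Hspa1a, chr17:34972242-34972271, minus strand: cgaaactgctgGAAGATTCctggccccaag

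A match of 2 units stood in 7 of the 37 members: Dnaja1, Dnaja4, Dnajb4, Dnajb6, Dnajc10, Dnajc27 and Dnajc5g. Over all 32851 promoter windows, 15.1% held a match of 2 units, and 8 of the 50 windows of members did. The 3-unit match, in 0.603% of all windows, was found in Dnajb6 and in no other member. The windows with a match thus include both a member that was higher in deficient libraries below (Dnaja1) and members that were not (Dnaja4, Dnajb4, Dnajb6). The windows of Dnajb1 hold no match in these letters, which says nothing about sites outside them or with other letters. The ER stress element, CCAAT and CCACG with 9 bases between them on either strand, stood in 0.119% of all windows and in the window of Dnajc3.

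**Figure D1:**
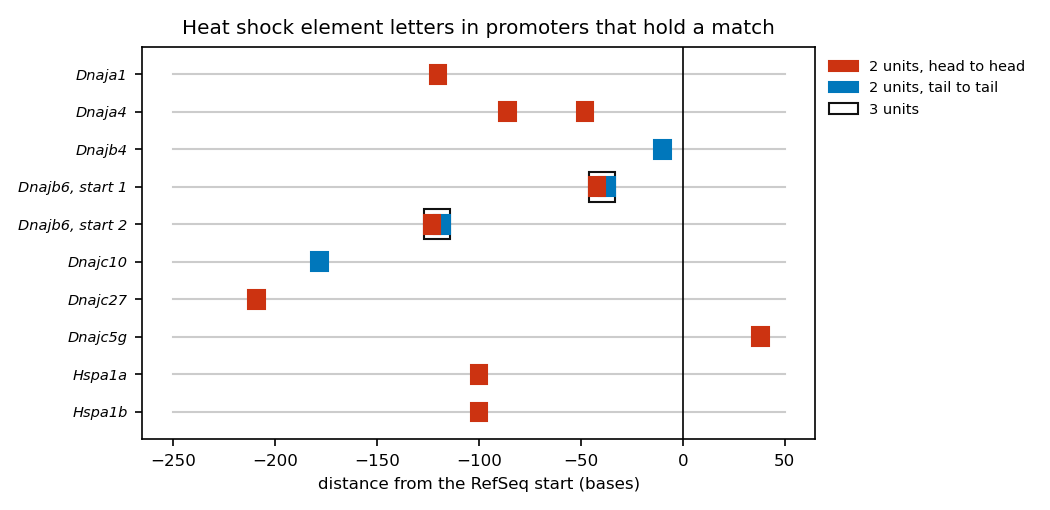
Position of heat shock element letters, in bases from the RefSeq start, in each promoter window of a member with a match and in Hspa1a and Hspa1b; red boxes are 2 units head to head, blue boxes 2 units tail to tail, black outlines 3 units. Dnaja1 has its match at -124 to -117, Dnaja4 at -90 to -83 and at -52 to -45, and Dnajb4 at -14 to -7.

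Levels are given as CPM, read counts scaled to a common library size with TMM factors, and per kilobase of exon where members are compared with each other. The libraries held 5823626 to 9216430 reads in genes. As a check of the labels, Id2, the gene beside Rroid, was at 382 ± 73.8 CPM in the wildtype group against 62.3 ± 21.5 CPM in the deficient group (SD, n = 3 each; log2 fold change -2.62, edgeR adjusted p = 0.0308). Among tested genes, 5.63% had no read in wildtype library 1 and 5.57% had none in deficient library 1, against 0.23% to 2.43% in the other libraries. NK cell markers were abundant throughout, with Ncr1, which encodes NKp46, at 900 to 1023 CPM. In these bulk libraries, fewer cells of a type and less RNA per cell cannot be told apart.

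No member passed edgeR's quasi-likelihood test over all 11724 genes tested, where 0.0171% of genes passed at an adjusted p of 0.05. At an unadjusted p under 0.05, 3 of the 36 tested members were called, all higher in deficient libraries, beside 5.29% of all genes (2.76% higher, 2.52% lower). They were Dnaja1, Dnajb1 and Dnajb9. The deficient libraries of these 3 members all lay above the wildtype libraries, and those of Dnajc18 all lay below. That makes 4 of 36 members without overlap, and among all tested genes 12.4% did not overlap (6.03% higher, 6.33% lower), so the family's share is close to the background. With RLE size factors, Dnajc11 was apart as well. DESeq2 on the same genes called 2 members, Dnajb1 and Dnaja1, both higher, where 0.569% of genes were called (0.332% higher, 0.236% lower). edgeR without the filter on low counts called the same 2 of 42 members, where 0.495% of genes were called (0.278% higher, 0.217% lower). DESeq2 on all genes called them as well, among 0.715% of genes (0.431% higher, 0.284% lower), and limma-voom called no member and 0.00853% of genes.

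Among the heat-inducible members, Dnaja1 and Dnajb1 had higher levels in every deficient library, and Dnaja4 and Dnajb4 did not. Dnaja1, a farnesylated class A co-chaperone of the cytosol, had 50.2, 55.8 and 70.9 CPM in wildtype libraries 1 to 3, and 157, 140 and 139 in deficient libraries 1 to 3. The lowest deficient value was well above the highest wildtype value, and the deficient libraries lay close together. This is a log2 fold change of 1.30 (SE 0.27, 95% interval 0.71 to 1.89; edgeR adjusted p = 0.543, DESeq2 adjusted p = 0.0044 on the same genes). Exons of Dnaja1 overlap those of Smu1 on the opposite strand, and whether reads were counted by strand is not given. Smu1 had 77.4, 131 and 112 CPM in the wildtype and 72.6, 131 and 76.3 in the deficient libraries, so its groups overlapped.

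Dnajb1, the canonical heat shock Hsp40 and the main stimulator of inducible Hsp70, had 131, 95.5 and 83.4 CPM in the wildtype and 185, 299 and 222 in the deficient libraries. All deficient libraries were higher, deficient library 2 most of all, and no annotated exon of another listed gene overlaps Dnajb1. Its log2 fold change was 1.19 (SE 0.27, 95% interval 0.58 to 1.79; edgeR adjusted p = 0.572, DESeq2 adjusted p = 0.0158). With any 1 library left out, the log2 fold change ranged from 0.97 to 1.38 for Dnajb1 and from 1.19 to 1.45 for Dnaja1, and neither passed in edgeR.

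Dnajb4 is a class B co-chaperone close in sequence to Dnajb1. Its values were 126, 90.8 and 64.3 CPM in the wildtype and 85.3, 57.6 and 99.4 in the deficient libraries. The groups overlapped over most of their range (log2 fold change -0.22, SE 0.34, 95% interval -0.98 to 0.55). Dnaja4, the lowest of the heat-inducible members per kilobase of exon, had 10.8, 2.58 and 12.4 CPM in the wildtype and 4.90, 16.0 and 15.3 in the deficient libraries. It was low in 1 library of each genotype, its interval was wide and its exons overlap Wdr61 on the opposite strand (log2 fold change 0.49, 95% interval -1.42 to 2.41). Whether Dnaja4 and Dnajb4 differ in response from Dnaja1 and Dnajb1 was not tested.

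**Figure D2:**
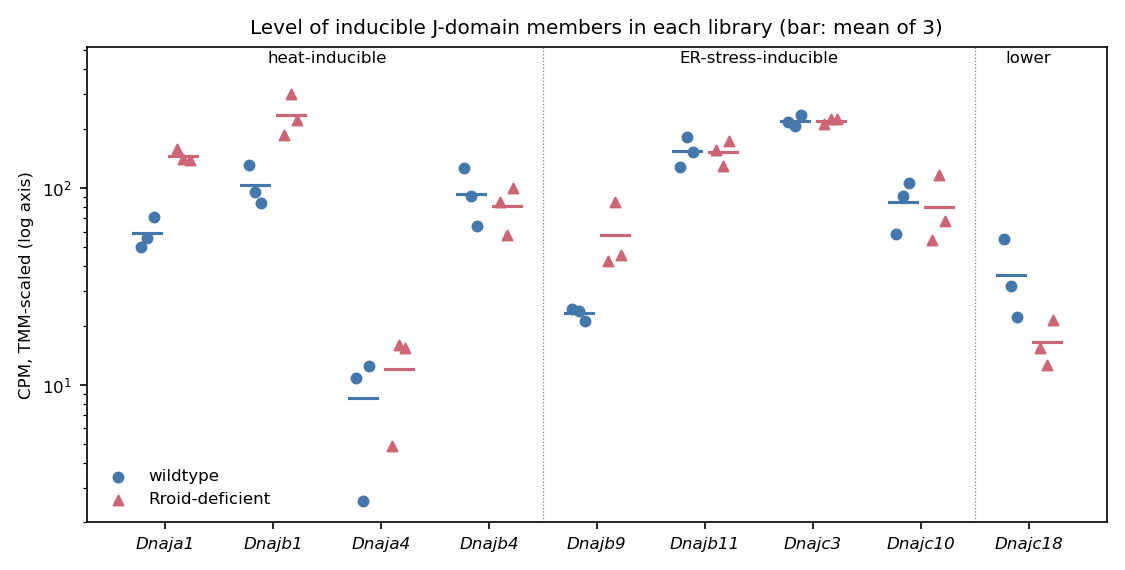
CPM on a log axis for the heat-inducible members, the ER-stress-inducible members and Dnajc18, with 1 point per library (circles wildtype, triangles Rroid-deficient) and a bar at each mean of 3. The triangles lie above all circles for Dnaja1, Dnajb1 and Dnajb9, below them for Dnajc18, and among them for the other 5 genes.

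Set against the rest of the family, the heat-inducible members had a median log2 fold change of 0.84, the other 32 tested members 0.00 and all tested genes 0.02. The 0.84 is the midpoint of 2 genes near 1.2 and 1.3 and 2 genes near or below 0.5, and it dropped to 0.08 when Dnajb2, Dnajb5 and Dnajb6 were added to the group. Summed over the heat-inducible members, the level was 318, 245 and 231 CPM in the wildtype and 432, 512 and 476 in the deficient libraries, 1.79 times as high by the means. Dnaja1 and Dnajb1 carried that difference, with 181, 151 and 154 CPM together in wildtype and 342, 439 and 361 in deficient libraries. Dnaja4 and Dnajb4 together had 137, 93.4 and 76.8 CPM in the wildtype and 90.2, 73.6 and 115 in the deficient libraries.

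The other 41 members together stayed almost level, with every deficient sum slightly above every wildtype sum. They summed to 1810, 1803 and 1808 CPM in the wildtype and 1909, 1860 and 1833 in the deficient libraries, a ratio of 1.03 that became 1 with upper-quartile factors. The share of the family's reads that came from Dnaja1 and Dnajb1 needs no scaling between libraries. It was 8.52%, 7.39% and 7.57% in wildtype and 14.6%, 18.5% and 15.6% in deficient libraries. These 2 genes were picked after their levels were seen, and the share of all 4 heat-inducible members differed less, at 15%, 12% and 11.3% against 18.5%, 21.6% and 20.6%. For Dnaja1 with Dnajb1, exact 95% binomial intervals ran from 7.02% to 8.99% over the wildtype and from 14.1% to 19.1% over the deficient libraries, covering counting error only.

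**Figure D3:**
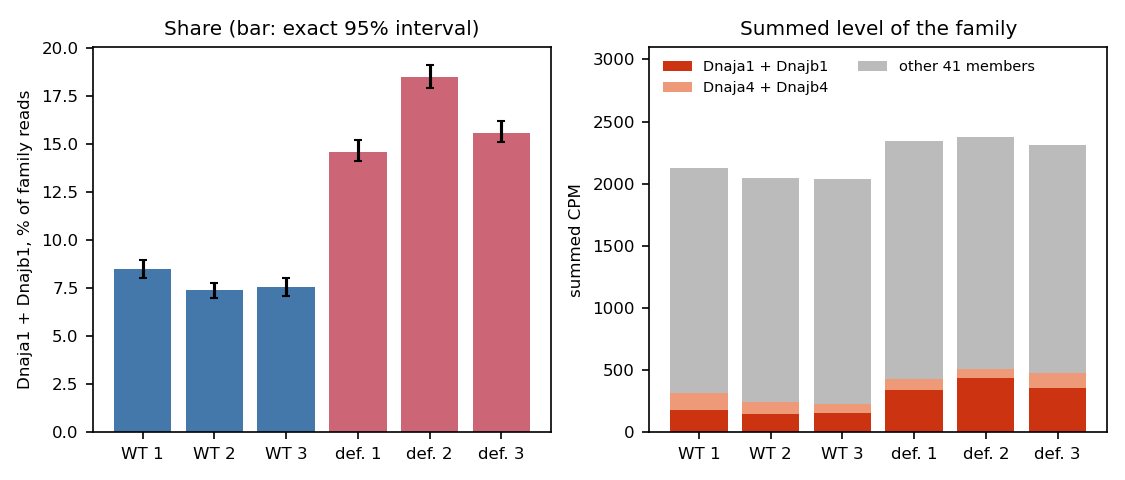
Left, Dnaja1 and Dnajb1 reads as a percentage of all reads of the 45 members in each library, with exact 95% binomial intervals; right, summed CPM per library of Dnaja1 with Dnajb1 (red), Dnaja4 with Dnajb4 (orange) and the other 41 members (grey). The share is at most 8.52% in wildtype and at least 14.6% in deficient libraries, while the grey part runs from 1803 to 1909 CPM.

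The Hsp70 genes that these co-chaperones serve were compared as a list. Of 13 tested members, Hspa1a passed the edgeR test, 6 were higher in every deficient library and none was lower in every one, with a median log2 fold change of 0.47. DESeq2 called 4 and 4 had an unadjusted p under 0.05, all higher. Over all tested genes, 0.0171% passed in edgeR, 0.569% were called by DESeq2, 5.29% had an unadjusted p under 0.05 and 6.03% were higher in every deficient library. Inducible Hspa1a, with 1 to 4 reads per wildtype library, had 0.300, 0.430 and 0.157 CPM in wildtype and 34.0, 38.2 and 37.8 in deficient libraries (edgeR adjusted p = 0.0308). Its near-identical copy Hspa1b had 2.55, 1.18 and 0 against 46.7, 28.9 and 42.9, and how reads were divided between the copies is uncertain. Constitutive Hspa8, the partner of Dnaja1 and Dnaja2 in unstressed cells, had 120, 140 and 129 CPM in the wildtype and 293, 342 and 292 in the deficient libraries. All 3 lay higher in every deficient library. Hsph1, an Hsp110 nucleotide exchange factor, had 125, 63.0 and 78.2 against 209, 301 and 205 CPM. The ER partner Hspa5 (BiP) had 524 ± 44.4 and 517 ± 55.0 CPM (SD, n = 3 each), with overlap. Mitochondrial Hspa9 had 50.2 ± 13.8 and 76.1 ± 15.5 CPM and was higher in every deficient library. Its values were 34.5, 60.5 and 55.7 CPM in wildtype and 66.2, 94.0 and 68.2 in deficient libraries (edgeR adjusted p = 0.925).

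Of 15 tested nucleotide exchange factors and Hsp70 adaptors, which release the client or link Hsp70 to other machinery, none passed in edgeR or DESeq2, 1 had an unadjusted p under 0.05, and the median log2 fold change was -0.17. Bag6 (192, 126 and 113 CPM in wildtype against 63.4, 83.2 and 90.2 in deficient libraries) and Bag5 (26.2, 21.2 and 33.5 against 7.35, 8.65 and 17.0) were lower in every deficient library. Beside this, 5.29% of all tested genes had an unadjusted p under 0.05 in edgeR and 6.33% were lower in every deficient library. Stip1, the adaptor between Hsp70 and Hsp90, had 35.2, 35.0 and 50.2 CPM in the wildtype and 43.4, 77.3 and 55.6 in the deficient libraries, with overlap.

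Among 13 tested Hsf1-linked and other heat shock genes, none passed in edgeR, 5 had an unadjusted p under 0.05, 1 was called by DESeq2, and 6 were higher in every deficient library, with a median log2 fold change of 0.56. Over all tested genes the same shares as above apply: 5.29% by unadjusted p, 0.569% by DESeq2 and 6.03% higher in every deficient library. Hsp90aa1, the inducible Hsp90 gene, had 43.7, 124 and 120 CPM in the wildtype and 185, 272 and 337 in the deficient libraries. Hspe1, the mitochondrial Hsp10 gene, had 34.0, 20.6 and 23.0 against 123, 47.1 and 39.4 CPM. The small heat shock genes Hspb1 and Hspb8 had a count of 0 in every library. Hsf1 itself had 24.2 ± 14.3 and 33.3 ± 12.2 CPM (SD, n = 3 each), with overlap. Hsf2, another heat shock factor gene, was higher in every deficient library (edgeR adjusted p = 0.914). It had 10.9, 3.54 and 7.86 CPM in the wildtype and 37.6, 24.1 and 12.6 in the deficient libraries. Immediate early genes such as Fos, Jun and Egr1, which respond to cell handling, had summed levels of 787, 387 and 331 CPM in the wildtype and 465, 513 and 426 in the deficient libraries, so the genotypes overlapped.

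Summed markers of some other cells differed in level between genotypes, and others overlapped. The 10 T cell markers summed to 26.4 to 47.8 CPM in wildtype and 93.0 to 150 in deficient libraries, with Cd3g at 4.62 to 8.34 and 54.8 to 68.2 and Cd3d at 4.94 to 8.65 and 24.1 to 67.1, but Bcl11b lower in every deficient library at 7.71 to 23.1 and 1.30 to 2.94. Cd6 and Cd8a had 0 counts in every library and Cd3e had 0 in every deficient library. The 8 monocyte and macrophage markers summed to 7.39 to 12.9 and 24.1 to 30.4 CPM, with Cd68 giving 19.6 to 30.4 in deficient libraries and C1qa at 0 throughout. The 8 B cell markers summed to 229 to 341 and 330 to 614 CPM, nearly all Ighm, with Pax5 and Blk at 0. The 11 NK cell markers summed to 12426 to 14952 CPM in wildtype and 10845 to 11324 in deficient libraries. The separation of the NK cell sums rested on Gzma (3917 to 5496 against 2315 to 2726 CPM). Without it, an alternative chosen after seeing the data, the sums overlapped, at 8336 to 10123 and 8206 to 9010 CPM. Klrb1c (954 to 1051 against 732 to 899 CPM) and Klrd1 (545 to 566 against 427 to 483) were also lower in every deficient library. That makes 3 of the 11 NK cell markers, beside 6.33% of all tested genes, and none was higher in every one. Their median log2 fold change was -0.26, with 8 negative and 3 positive. The 6 erythroid and platelet markers found summed to 8.05 to 17.8 CPM in wildtype and 1.14 to 6.91 in deficient libraries, with Alas2 at 4.08 to 15.6 and at most 3.04, and Pf4 and Ppbp at 0. The part of these shifts in the J-domain values was not tested. Sums of the dendritic cell, neutrophil and ILC1 markers overlapped between genotypes.

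In the ER, 11 of 12 members were tested, 1 was higher and 1 lower in every deficient library, and the median log2 fold change was 0.00. Of all tested genes, 6.03% were higher and 6.33% lower in every deficient library. Dnajb9 (ERdj4), which binds the stress sensor Ire1 and helps in degrading misfolded ER proteins, had 24.4, 23.7 and 21.2 CPM in the wildtype and 42.8, 85.3 and 45.8 in the deficient libraries. The wildtype libraries lay within a few CPM of each other, and deficient library 2 was again the highest. The fitted log2 fold change, 1.32 (SE 0.43, 95% interval 0.36 to 2.29), had an edgeR adjusted p of 0.895 and a DESeq2 adjusted p of 0.23.

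The other ER-stress-inducible members overlapped between genotypes. Dnajc3 (p58IPK), a BiP co-chaperone that also restrains the kinase Perk, had the lowest spread within a genotype of the tested members, with 217, 207 and 234 CPM in the wildtype and 212, 224 and 224 in the deficient libraries. The fit gave a log2 fold change of 0.00 (SE 0.19, 95% interval -0.42 to 0.42). Dnajb11 (ERdj3), a soluble BiP co-chaperone, had 128, 182 and 153 CPM in wildtype and 155, 130 and 174 in the deficient group (log2 fold change -0.01, 95% interval -0.54 to 0.52). Dnajc10 (ERdj5), a disulfide reductase, had 58.6, 90.9 and 106 against 54.5, 117 and 67.9 CPM (log2 fold change -0.09, 95% interval -0.92 to 0.74). These intervals exclude a doubling for Dnajc3, Dnajb11 and Dnajc10.

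Of 17 other unfolded protein response genes tested, none passed in edgeR or DESeq2, 1 had an unadjusted p under 0.05, 2 were higher in every deficient library and the median log2 fold change was -0.04. These were Manf, a secreted ER stress protein (31.0, 31.0 and 31.8 CPM in wildtype against 102, 56.4 and 50.3 in deficient libraries), and the disulfide isomerase gene Pdia4 (43.3, 74.3 and 82.9 against 116, 85.5 and 106). The shares over all tested genes were 5.29% by unadjusted p in edgeR and 6.03% higher in every deficient library. Xbp1, Herpud1 and Ddit3, typical ER stress genes, overlapped between genotypes.

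Dnajc18, an ER membrane member related to Dnajb12 and Dnajb14, had 54.8, 31.7 and 22.2 CPM in the wildtype and 15.4, 12.6 and 21.4 in the deficient libraries. The groups did not overlap, but the lowest wildtype and highest deficient values almost met (log2 fold change -1.14, SE 0.54, 95% interval -2.33 to 0.06; edgeR adjusted p = 0.915). Among the remaining ER members, Dnajc1, a membrane protein that binds the ribosome, was at 209 ± 52.7 and 257 ± 72.0 CPM (SD, n = 3 each). Dnajc14 had 74.3 ± 21.0 and 78.1 ± 14.2 CPM. Dnajb12, a membrane co-chaperone of ER-associated degradation, had the most negative log2 fold change of the tested members (-1.68, 95% interval -3.43 to 0.06). Its wildtype values were 56.3, 17.0 and 13.4 CPM and its deficient ones 6.20, 4.40 and 16.3, so library 1 was far above the other wildtype libraries and the groups overlapped. Dnajb14, Dnajc16 and Dnajc25, all near or under 20 CPM, had log2 fold changes of 0.47, -0.41 and 0.00 with wide intervals.

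**Figure D4:**
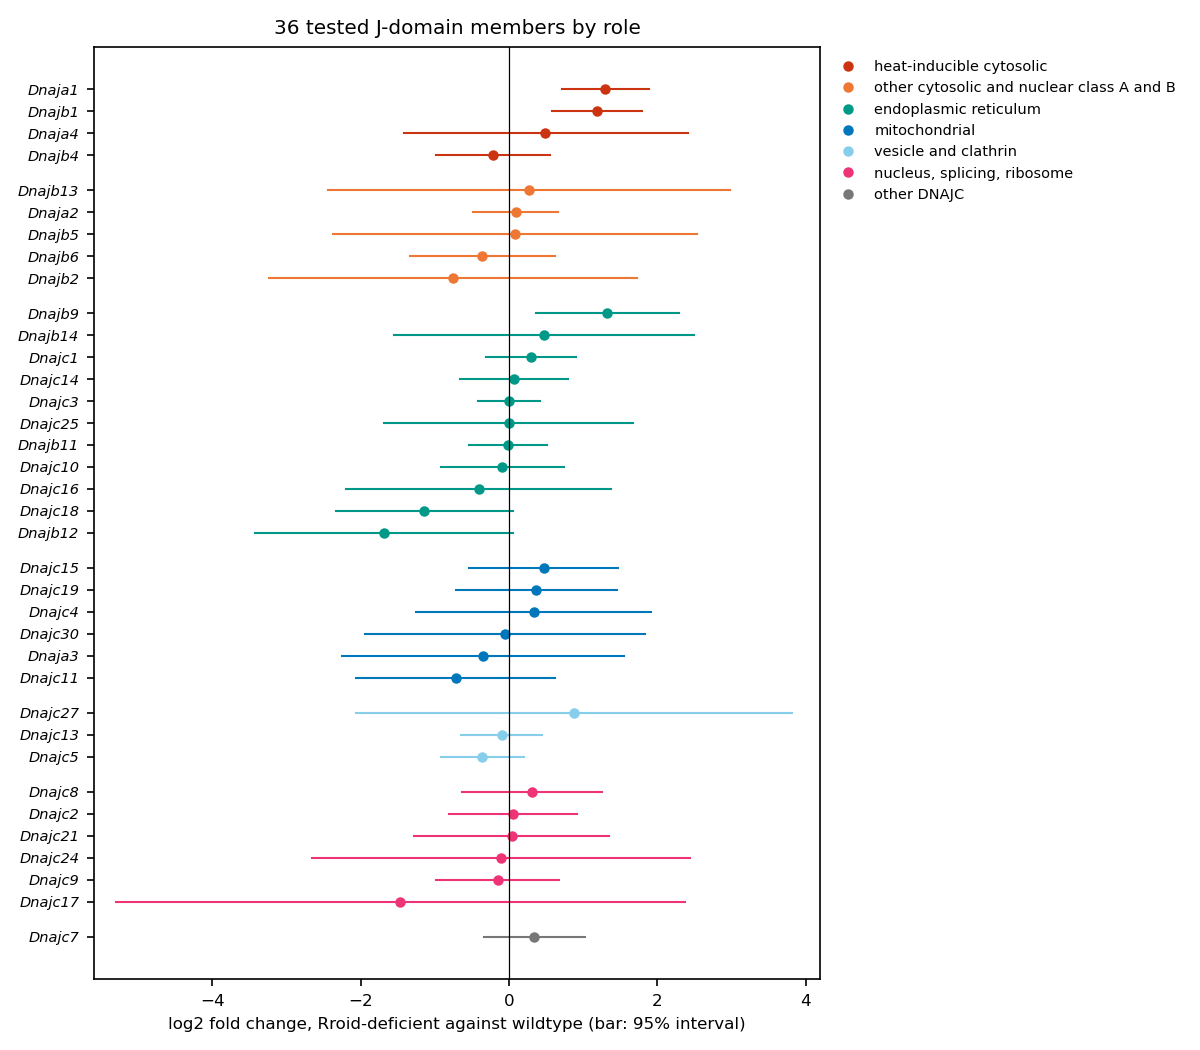
log2 fold change of Rroid-deficient against wildtype with its 95% interval for the 36 tested members, grouped and coloured by role. The intervals of Dnaja1, Dnajb1 and Dnajb9 lie above 0, at 0.71 to 1.89, 0.58 to 1.79 and 0.36 to 2.29, and those of the other 33 members include 0.

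Of the 8 other cytosolic and nuclear class A and B members, 5 were tested, with a median log2 fold change of 0.08. None differed without overlap, where 12.4% of all tested genes did. Dnaja2, the main constitutive class A partner of Hspa8, had 126, 102 and 107 CPM in wildtype and 136, 95.6 and 125 in the deficient group (log2 fold change 0.09, SE 0.26, 95% interval -0.48 to 0.66). Dnajb6, a suppressor of protein aggregation with the 3-unit heat shock element letters shown above, had 55.6, 28.3 and 40.7 CPM in the wildtype and 36.0, 24.8 and 36.0 in the deficient libraries. Its log2 fold change was -0.36 (95% interval -1.34 to 0.62). Dnajb2, Dnajb5 and Dnajb13 were under 20 CPM on average, with log2 fold changes of -0.75, 0.08 and 0.27.

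Of 7 mitochondrial members, 6 were tested, none differed without overlap (12.4% of all tested genes did), and the median log2 fold change was 0.14. Dnajc15 (MCJ), a brake on respiratory complex I, had 126, 57.0 and 45.0 CPM in the wildtype and 67.5, 159 and 88.9 in the deficient libraries. Dnajc19, an import motor subunit of the inner membrane, had 25.9 ± 6.82 and 33.5 ± 12.4 CPM (SD, n = 3 each). Its exons overlap Fxr1 on the opposite strand. Dnaja3, the mitochondrial class A member, had 17.9 ± 10.6 and 14.1 ± 9.99 CPM, and Dnajc11, of the cristae organizing complex, 20.3 ± 4.69 and 12.3 ± 3.91. Dnajc4 and Dnajc30 had log2 fold changes of 0.34 and -0.05.

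Of 6 vesicle and clathrin members, 3 were tested, with a median log2 fold change of -0.10. None differed without overlap, beside 12.4% of all tested genes that did. Dnajc5 (cysteine string protein), which keeps the membrane fusion machinery of exocytosis folded, had 186, 153 and 115 CPM in the wildtype and 110, 118 and 125 in the deficient libraries. Its groups overlapped (log2 fold change -0.36, SE 0.25, 95% interval -0.92 to 0.20). Dnajc13, an endosomal protein, had 138 ± 26.2 and 129 ± 15.5 CPM (SD, n = 3 each).

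All 6 members linked to the nucleus, splicing or the ribosome were tested, and their median log2 fold change was -0.04. None differed without overlap, against 12.4% of all tested genes. Dnajc2, a ribosome-associated co-chaperone for nascent chains, had 60.2 ± 12.3 and 62.5 ± 26.5 CPM by genotype (SD, n = 3 each). Dnajc8, a splicing factor, had 50.3 ± 22.1 and 62.3 ± 11.3. Dnajc17, Dnajc21 and Dnajc24 had log2 fold changes of -1.47, 0.04 and -0.11, with no read for Dnajc17 in library 1 of either genotype. Dnajc9, a histone co-chaperone, had 58.4, 55.9 and 66.4 CPM in the wildtype and 35.7, 50.9 and 75.6 in the deficient libraries, with a wider spread in the deficient group. Dnajc7, a partner of both Hsp70 and Hsp90 through its tetratricopeptide repeats, had 85.6 ± 10.7 and 109 ± 33.0 CPM (SD, n = 3 each; log2 fold change 0.34, 95% interval -0.34 to 1.03).

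Of the 9 members that did not pass the filter, 8 had at most 2.99 CPM in any library, and Dnajc12 had up to 7.79. Dnajb8, Dnajc22 and Dnajc5g had no count in any library, which allows up to 0.322 to 0.489 CPM per library at 3 counts, covering counting error only. Dnajb3, Dnajc6 and Dnajc5b had at most 3 counts in any library. Dnajb7 had counts of 0, 0 and 0 in wildtype and 0, 11 and 5 in deficient libraries. Dnajc28 had 0, 0 and 19 against 0, 2 and 0. Dnajc12, a co-chaperone of aromatic amino acid hydroxylases, had counts of 52, 28 and 7 in wildtype and 0, 0 and 6 in deficient libraries. It lay lower in every deficient library without passing the filter, and edgeR without the filter gave it an adjusted p of 0.688.

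Per kilobase of exon, 4 members headed the family in wildtype cells: Dnajb11 at 47.7 ± 8.29 CPM per kb, Dnajc3 at 42.6 ± 2.60, Dnaja2 at 37.5 ± 4.29 and Dnajb1 at 32.2 ± 7.74 (SD, n = 3 each). Neighbours in this order overlapped in their library values. Dnajc9 followed at 25.3 ± 2.29. In deficient libraries Dnajb1 moved from rank 4 to rank 1, at 73.4 ± 18.1 CPM per kb. Its lowest deficient library (57.7) lay above the highest deficient library of Dnajb11 (53.8). Dnajb11, Dnajc3 and Dnaja2 kept their order behind Dnajb1 at 47.3, 42.7 and 39.9. Exon lengths count every annotated exon once, so genes with many annotated isoforms, such as Dnaja1 with 8629 bases, read low on this scale.

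**Figure D5:**
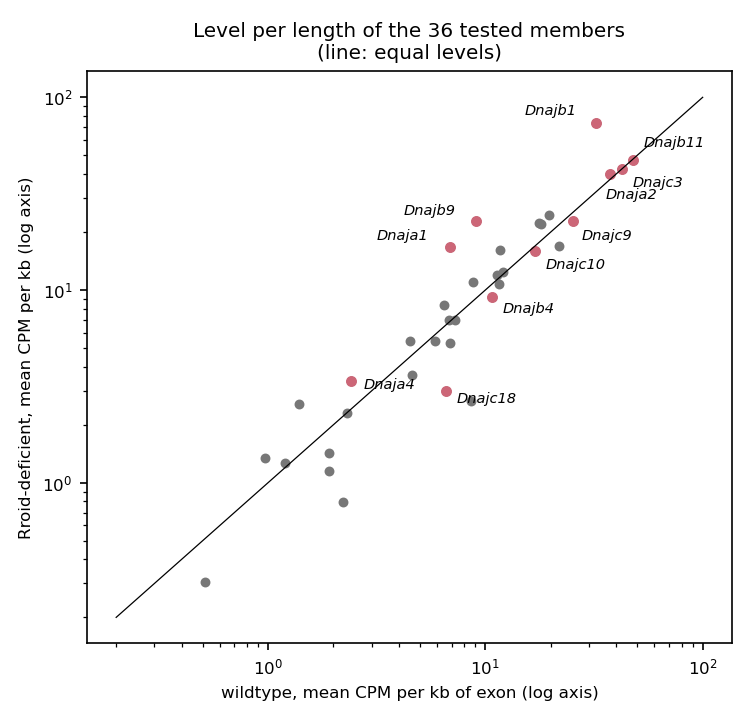
Mean CPM per kilobase of exon in deficient (y) against wildtype (x) libraries, both on log axes, for the 36 tested members, with red points for the named members and a line of equal levels. Dnajb1 stands above the line at 32.2 and 73.4 CPM per kb, whereas Dnajb11 and Dnajc3 lie on it.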

How the data were processed

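Per the labels' protocols, the 6 libraries were made from total RNA with an Ovation amplification kit and read from 1 end. The submitters' processing notes name Trimmomatic 0.33, TopHat2 2.1.0, HTSeq 0.6.1 and DESeq2, with builds NCBIM37 and mm9; the sources used here give neither settings nor whether strand was used. The authors deposited raw counts per Ensembl gene, and 5 closing rows that name no gene (80.0% to 84.4% of reads listed) were left out. Symbols (32919 genes matched), exon lengths and overlaps came from GENCODE M21 (GRCm38), promoters from RefSeq (GRCm38.p6), so no coordinate refers to the counts' build.

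The test was edgeR 4.0.16 (R 4.3.3): TMM, filterByExpr, a quasi-likelihood fit on genotype, Benjamini-Hochberg adjustment over all 11724 tested genes. Each SE is the fold change divided by the root of its F statistic. The fit was tested on simulated data. All pairs of libraries differed beyond counting noise (chi-square over degrees of freedom at least 19.2). Alternatives used DESeq2 1.42.0, limma 3.58.1 (voom), other scalings and filters, a replicate block, a loess length trend, and left-out libraries. The alternative without library 1 of both genotypes was added after seeing the data.

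Values in every library were given for the inducible members, members with an unadjusted p under 0.05 or without overlap, and the 5 highest per kilobase; roles give up to 2 further members, and lists up to 4 genes of smallest p. Dnajb12, Dnajc12, Hspa5, Hspa9, Hsf1, Hsf2 and single marker and unfolded protein response genes were named after their values were seen. Members and lists were chosen with earlier results of these data known. Figures used matplotlib 3.10.9.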

Additional observations from a re-analysis of the deposited data

How the results depend on the processing

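With DESeq2 on the tested genes, DESeq2 on all genes and edgeR without a filter, 2 members passed in place of 0, Dnaja1 (log2 fold change 1.31, 1.31 and 1.29) and Dnajb1 (1.19, 1.19 and 1.18); no member passed in any other alternative, including a threshold of 0.1. With any 1 library left out, 6 to 10 members did not overlap, beside 19.8% to 26.4% of all genes, since fewer libraries overlap less often; without replicate 1 of both genotypes these were 15 members and 37.6%. Dnaja1, Dnajb1, Dnajb9 and Dnajc18 were apart in all 13 settings, which adds no support. Groups that are apart with every library stay apart when some are removed, small changes of scaling aside. The other settings rescale or refilter the same counts. The median of the heat-inducible members was 0.59 to 1.05 with 1 library left out and 0.08 in the wider group. The median of the other members was -0.10 to 0.06 with 1 library left out, -0.11 with limma-voom, -0.12 with the replicate block and -0.13 without replicate 1 of both genotypes. The ratio of their summed CPM was 1 with upper-quartile factors and 1.01 without scaling. The replicate block changed no call of a member; deviations of same-numbered libraries correlated at 0.014, -0.017 and 0.04, so the numbers were not treated as pairs.

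Members near 0 changed sign. With 1 library left out, the log2 fold change spanned -0.02 to 0.22 for Dnaja2, -0.14 to 0.12 for Dnajb11, -0.43 to 0.05 for Dnajb4, -0.48 to 0.12 for Dnajc10, -0.04 to 0.05 for Dnajc3 and -0.48 to 0.07 for Dnajc9. Without replicate 1 of both genotypes Dnajb4 had 0.01 and Dnajc9 0.05. Dnajc3 had -0.04 with upper-quartile factors, -0.03 without scaling, -0.01 without a filter and -0.06 with the length trend removed. Members under 20 CPM had a median SE of 0.86 and those at 100 CPM or more 0.25; the cause was not tested.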

Other observations

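J-domain genes whose names fall outside the Dnaj series were compared as well. None of those given here passed in edgeR or DESeq2 or had an unadjusted p under 0.05, and their groups overlapped. Sec63, the J-domain subunit of the ER translocon, had 41.6, 97.0 and 84.3 CPM in wildtype libraries against 105, 90.4 and 99.7 CPM in deficient ones. Gak, which uncoats clathrin vesicles, had 138, 197 and 145 against 157, 207 and 155 CPM, and Hscb, of iron-sulfur cluster assembly, had 20.1, 12.9 and 23.6 against 42.5, 12.7 and 53.9.

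Several members had a single library far from the others of its genotype, chosen here after their values were seen. Dnajc27, a Rab-like GTPase with a J domain, had a count of 0 in deficient library 1, against 103 and 161 in deficient libraries 2 and 3. Dnajc24, of diphthamide synthesis, had a count of 1 in deficient library 2, against 70 and 87. Dnajb13, known from sperm flagella, had counts of 277, 24 and 4 in deficient libraries, and its exons overlap those of Ucp2 on the opposite strand. Dnajb14 had a count of 16 in wildtype library 1, against 191 and 146.

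The median SD within a genotype of log2(CPM + 0.5) was 0.23 for the 8 members at 100 CPM or more and 0.29 for the 1758 genes there. At 50 to 100 CPM it was 0.46 for 8 members and 0.45 for 1638 genes, and at 20 to 50 CPM it was 0.44 for 5 members and 0.64 for 2759 genes. It was 1.10 for the 15 members under 20 CPM and 1.11 for the 5569 genes there.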
